A study of Mus musculus with 4 samples.

Results

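The genes described here are the neurotrophin ligands Bdnf and Ntf3, the Trk receptors Ntrk2 and Ntrk3, the p75 receptor Ngfr and the sorting receptor Sort1. They were taken by symbol as a fixed set of neurotrophin system genes, 6 of the 55341 genes in the count files, and all 6 had enough counts to be tested. RNA-seq had been performed on cerebellar tissue at postnatal day 14, an intermediate time point of cerebellar granule neuron (CGN) maturation, to ask how loss of the H3K27 demethylase KDM6B alters gene expression. The Kdm6b-cKO group held 2 libraries of mice with the genotype Atoh1-Cre; Kdm6b fl/fl, and the WT group held 2 libraries of Kdm6b fl/fl littermates without Cre, so that both groups carried the floxed alleles. Cre was driven by Atoh1, which is active in granule neuron precursors, while the tissue sequenced was whole cerebellum with all of its other cells. Each library came from an individual mouse.

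Neurotrophins are secreted growth factors that are made as precursors and cut by proteases. The mature factors signal through Trk receptor tyrosine kinases, BDNF mainly through TrkB (encoded by Ntrk2) and NT-3 (encoded by Ntf3) mainly through TrkC (encoded by Ntrk3), and all of them bind the p75 receptor. The uncut precursors bind p75 together with sortilin, the product of Sort1, which also sorts BDNF precursor inside the cell. In the rodent cerebellum BDNF and NT-3 are known for their roles in the survival, migration and maturation of granule neurons.

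Libraries held 8811849 to 9892363 counts in genes. Levels are given as CPM, counts scaled to a common library size by TMM, and with 2 libraries per group a mean ± SD rests on n = 2 each. Kdm6b, of which the deletion removes only the exons of the catalytic domain while counts cover all exons, was at 127 and 119 CPM in cKO and 154 and 154 CPM in WT (log2 fold change −0.33 with SE 0.076, edgeR adjusted p = 0.0162). That call was lost in edgeR without WT 1 (adjusted p = 0.116), without WT 2 (0.0991) and with no filter on low counts (0.0722). Xist and Y-linked genes showed the male pattern in WT 1 and the female pattern in the other 3 libraries. Choroid plexus markers summed to 698 and 43.4 CPM in cKO 1 and cKO 2, against 36.6 and 38.3 CPM in WT 1 and WT 2. Values without WT 1 or without cKO 1 are therefore given beside some of the results, and not beside all of them.

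The regulatory sequences of these genes are shown first. The RefSeq promoter table (GRCm38.p6) had entries for 4 of the 6 genes, Bdnf, Ntf3, Ntrk2 and Ngfr, with 11 start sites between them, 7 of which belong to Bdnf. The 250 bases before each start were searched on both strands for the letters TGACG, the core of the cAMP response element through which neuronal activity is known to drive Bdnf in rodent neurons, and for the full site TGACGTCA. The core was present in 1 of the 11 windows, at start site 3 of Bdnf, against 17.8% of the 32851 windows of this length in the genome. The full site was in none of the 11 and in 1.55% of all windows. The stretch with the core is printed because Bdnf had the largest log2 fold change in size among the 6 genes. Bdnf had 18 to 61 counts per library and did not pass the test. The core is in capitals as read on the other strand. The stretch lies at chr2:109692373-109692432 on the plus strand.
Bdnf start site 3: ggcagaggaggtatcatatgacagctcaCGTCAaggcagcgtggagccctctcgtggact

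H3K27me3, the mark that KDM6B removes, is known to lie over promoters rich in CG dinucleotides, so CG counts were taken from the same windows. The window with most CG held 19 for Ntrk2, 16 for Ngfr, 14 for Ntf3 (start site 2) and 13 for Bdnf (start site 5), against a median of 6 and an upper quartile of 16 over all windows. The 7 windows of Bdnf ranged from 1 to 13 and the 2 of Ntf3 held 11 and 14, so for these genes the highest of several windows is set against single windows. As many as in the highest, or more, were found in 19.7%, 25.4%, 29.4% and 31.5% of all windows. The 60 bases densest in CG are shown for each, with every CG in capitals, to let the genes be compared. They lie at chr13:58806418-58806477 (plus strand), chr11:95587754-95587813 (minus strand), chr6:126164999-126165058 (minus strand) and chr2:109694179-109694238 (plus strand). The counts pool all transcripts of a gene, so no level can be assigned to a start site.
Ntrk2: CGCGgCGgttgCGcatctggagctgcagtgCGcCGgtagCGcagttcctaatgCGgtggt
Ngfr: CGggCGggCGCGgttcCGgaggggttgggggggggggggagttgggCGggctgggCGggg
Ntf3: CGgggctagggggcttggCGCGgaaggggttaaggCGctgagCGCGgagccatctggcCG
Bdnf: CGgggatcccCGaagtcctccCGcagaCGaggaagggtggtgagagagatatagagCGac

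Among the 6 genes, Ntrk3 fell in Kdm6b-cKO cerebellum and the other 5 did not pass the test. Ntrk3 (ENSMUSG00000059146.12, chromosome 7, 78175959 to 78738012, minus strand, GRCm38) was at 264 and 238 CPM in cKO 1 and cKO 2, against 336 and 327 CPM in WT 1 and WT 2. Both cKO libraries lay below both WT libraries, and the replicates of each group differed by less than the group means. The level fell by 24.3% (log2 fold change −0.40 with SE 0.071, edgeR adjusted p = 0.00171). Of the 16617 tested genes, 4.04% passed in either direction, 2.17% as lower and 1.87% as higher, and 1 of these 6 genes passed, as lower. In 3 of the 6 genes (Bdnf, Ntrk2 and Ntrk3) the groups did not overlap, each with cKO lower, where such separation was seen in 46.4% of all tested genes, and with cKO lower in 23.2%. The median log2 fold change of all 6 genes was −0.13, beside 0.0036 over all tested genes.

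**Figure D1:**
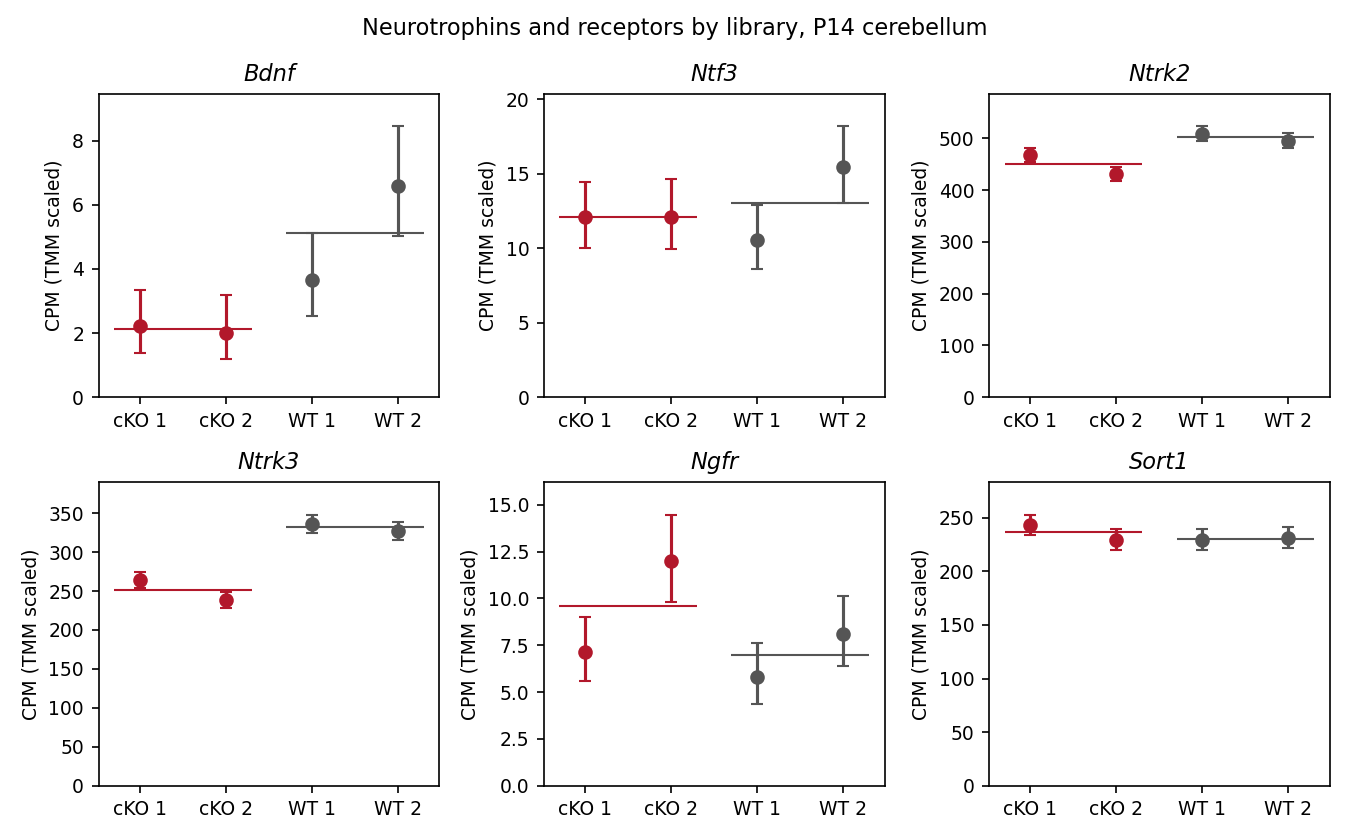
TMM-scaled CPM (vertical axes, linear from 0) of the 6 genes in each library, with cKO in red and WT in grey. Points are libraries, vertical bars are exact Poisson 95% intervals that cover counting error only, and horizontal lines are group means. Ntrk3 sits at 264 and 238 CPM in cKO and at 336 and 327 CPM in WT, while Bdnf spans 3.67 to 6.59 CPM within WT.

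With 1 library left out, its group has 1 library, which is assumed to vary like the other group. On that assumption Ntrk3 passed without WT 1, where all libraries have the female pattern (log2 fold change −0.38, edgeR adjusted p = 0.0216), and without WT 2 (−0.42, adjusted p = 0.00536). It did not pass in edgeR without cKO 1 (−0.48, adjusted p = 0.299) and without cKO 2 (−0.33, adjusted p = 0.483), fits in which 0 of the 16617 genes passed (edgeR; 2258 and 1691 at an unadjusted p under 0.05). In the 9 alternatives that kept all libraries, the adjusted p of Ntrk3 was 4.64e-06 to 0.0295, DESeq2 and limma-voom included.

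TrkC is a receptor of granule neurons, and markers of granule neuron stages differed between the same libraries. Of 12 genes of mature granule neurons, 7 fell and 0 rose (2.17% and 1.87% over all genes), and they summed to 6461 and 5736 CPM in cKO, against 7346 and 7572 CPM in WT. Of 11 tested genes of newborn neurons and progenitors, 8 rose and 0 fell, and all 12 of that list summed to 1953 and 2371 CPM in cKO, against 1581 and 1699 CPM in WT. No marker in either list was at 0 in all libraries. Both lists were chosen with earlier results of these data known, and the paper names Grin2c and Grm4 as lower in cKO. Ntrk3 and the mature sum were both lowest in cKO 2, whereas within WT Ntrk3 was higher in WT 1 and the mature sum in WT 2. Single mature markers went either way within WT. Gabra6 was at 591 and 570 CPM and Etv1 at 567 and 550.5 CPM in WT 1 and WT 2. Grm4 was at 840 and 939 CPM and Slc17a7 at 706.5 and 765 CPM. The part of these shifts in the result was not tested. In bulk tissue, fewer cells of a type and less RNA per cell cannot be told apart.

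Ntrk2, which encodes TrkB, stood higher than Ntrk3 per kilobase of exon in every library. Ntrk2 (ENSMUSG00000055254.15, chromosome 13, 58806569 to 59133970, plus strand) was at 468 and 432 CPM in cKO 1 and cKO 2, against 509 and 495.5 CPM in WT 1 and WT 2. The groups did not overlap, but the difference did not pass (log2 fold change −0.16 with SE 0.070, edgeR adjusted p = 0.256), and the 95% interval from its SE covered −0.30 to −0.022. As a ratio within each library, not corrected for length, Ntrk2 counts were 1.77 and 1.81 times those of Ntrk3 in cKO 1 and cKO 2, and 1.51 and 1.52 times in WT 1 and WT 2. This ratio was higher in both cKO libraries by a mean of 0.278, with an exact two-sided permutation p = 0.333, the smallest that 2 against 2 libraries allow.

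Truncated forms of TrkB are abundant in astrocytes and Bergmann glia, and some of those markers also differed between groups. Of 11 such genes 5 fell, among them the glutamate transporter genes Slc1a2 and Slc1a3, and 1, Fabp7, rose (2.17% and 1.87% over all tested genes). The other 5 did not pass, and by sign alone 6 of the 11 lay below 0 and 5 above. The 11 genes summed to 5429 and 5159 CPM in cKO, against 6144 and 6008 CPM in WT, and none was at 0. Their median log2 fold change was −0.18, beside −0.13 for Purkinje cell markers and −0.11 for inhibitory interneuron markers. The part of these shifts in the values of Ntrk2 was not tested. Both Ntrk2 and Ntrk3 encode full-length kinase receptors and truncated forms. With 10 annotated transcripts of Ntrk2 and 20 of Ntrk3 summed into 1 count per gene, the forms could not be separated.

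Bdnf was the lowest of the 6 genes per kilobase of exon and had the largest difference between groups on the log2 scale. Bdnf (ENSMUSG00000048482.14, chromosome 2, 109674700 to 109727007, plus strand) had 22 and 18 counts in cKO 1 and cKO 2, against 34 and 61 counts in WT 1 and WT 2, or 2.22 and 2.02 CPM against 3.67 and 6.59 CPM. Both cKO libraries lay below both WT libraries, but the WT libraries differed from each other by more than the cKO mean differed from WT 1. The mean was 2.12 ± 0.142 CPM in cKO and 5.13 ± 2.06 CPM in WT (SD, n = 2 each). Its log2 fold change of −1.27 had an SE of 0.37, and the gene fell just short of the threshold (edgeR adjusted p = 0.0552).

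The size of that difference was set in part by WT 2. It was −1.63 without WT 1 (edgeR adjusted p = 0.0183) and −0.79 without WT 2 (adjusted p = 0.593), and −1.34 and −1.20 without cKO 1 and cKO 2. Counting error is wide at this depth: the exact Poisson 95% interval ran from 1.39 to 3.36 CPM in cKO 1, 1.20 to 3.19 CPM in cKO 2, 2.54 to 5.13 CPM in WT 1 and 5.04 to 8.46 CPM in WT 2. The interval of WT 1 thus overlapped those of both cKO libraries and that of WT 2 did not. The antisense gene Gm45346 shares 896 of the 6217 exon bases of Bdnf and had 0 and 3 counts in cKO, against 6 and 2 counts in WT. The strand setting of the counting is not given in the sources used here, so reads of the shared bases cannot be told apart.

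Ntf3, the other ligand, showed no separation of the groups. Ntf3 (ENSMUSG00000049107.13, chromosome 6, 126101412 to 126166910, minus strand) was at 12.1 and 12.1 CPM in cKO 1 and cKO 2, against 10.6 and 15.4 CPM in WT 1 and WT 2. Both cKO values fell between the WT values. On the log2 scale cKO differed from WT by −0.10 (SE 0.20, edgeR adjusted p = 0.856). The 95% interval from its SE ran from −0.49 to 0.28, so a change of moderate size in either direction was not excluded. The exact Poisson 95% intervals of WT 1 (8.58 to 12.88 CPM) and WT 2 (13.01 to 18.19 CPM) did not overlap.

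Ngfr, which encodes the p75 receptor and is known in rodents to be expressed by proliferating granule neuron precursors, was highest in cKO 2. Ngfr (ENSMUSG00000000120.6, chromosome 11, 95568818 to 95587735, minus strand) was at 7.16 and 11.99 CPM in cKO 1 and cKO 2, against 5.83 and 8.10 CPM in WT 1 and WT 2. The groups overlapped, since cKO 1 lay below WT 2. On the log2 scale the fold change came to 0.45 (SE 0.26, edgeR adjusted p = 0.423), and leaving out cKO 1 gave 0.78, whereas leaving out cKO 2 gave 0.041. The sum of newborn and progenitor markers was also highest in cKO 2, at 2371 CPM. This sum, to which Cntn2 and Neurod1 added most, was higher in cKO 1 (1953 CPM) than in WT 2 (1699 CPM). Single genes of the list went either way between cKO 1 and WT 2. Mki67 was at 20.3 and 21.1 CPM and Mycn at 13.7 and 14.8 CPM. Top2a was at 21.5 and 14.9 CPM and Ccnd2 at 51.7 and 38.7 CPM. The part of these markers in the values of Ngfr was not tested. Among markers of Schwann cells, which also express p75, Egr2 and Foxd3 were at 0 in all libraries, and the 7 genes of that list, dominated by Mal, which oligodendrocytes also express, summed to 253 and 229 CPM in cKO, against 301 and 278 CPM in WT.

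Sort1, the gene of sortilin, was at nearly the same level in the 4 libraries. Sort1 (ENSMUSG00000068747.14, chromosome 3, 108284082 to 108361511, plus strand) was at 243 and 229.5 CPM in cKO 1 and cKO 2, against 229 and 231 CPM in WT 1 and WT 2. On the log2 scale cKO differed from WT by 0.036 (SE 0.068, edgeR adjusted p = 0.856), with a 95% interval from its SE of −0.098 to 0.17. Its antisense neighbour Gm12523, named here after its values were seen, shares 338 of the 7569 exon bases of Sort1. Gm12523 rose in cKO, at 19.3 and 16.1 CPM in cKO 1 and cKO 2, against 8.63 and 11.5 CPM in WT 1 and WT 2 (log2 fold change 0.82 with SE 0.19, edgeR adjusted p = 0.0134). The groups did not overlap, and reads of the shared bases cannot be told apart between these genes unless strand was used. Gm12523 was highest in cKO 1 and lowest in WT 1, and its call was not examined with a library left out or in the other alternatives.

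Levels of different genes were set against each other as CPM per kilobase of exon. By the summed length of all annotated exons, Sort1 averaged 31.2 in cKO and 30.4 in WT, Ntrk2 23.3 and 26.0, Ntrk3 8.32 and 11.0, Ntf3 7.06 and 7.59, Ngfr 2.78 and 2.02, and Bdnf 0.341 and 0.825 CPM per kilobase in cKO and in WT. The receptor genes Sort1 and Ntrk2 were thus more than 10-fold above the ligand Bdnf in every library. Ntrk3 lay above Ntf3 within each of the 4 libraries, although their ranges over libraries overlapped by this length (7.89 to 11.2 and 6.17 to 9.01) and did not by the longest transcript (12.1 to 17.1 and 7.13 to 10.4). By the longest transcript, Ntrk2 averaged 51.4 in cKO and 57.5 in WT and lay above Sort1, which averaged 34.6 in cKO and 33.7 in WT, so the order of these top 2 genes depended on the length used.

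**Figure D2:**
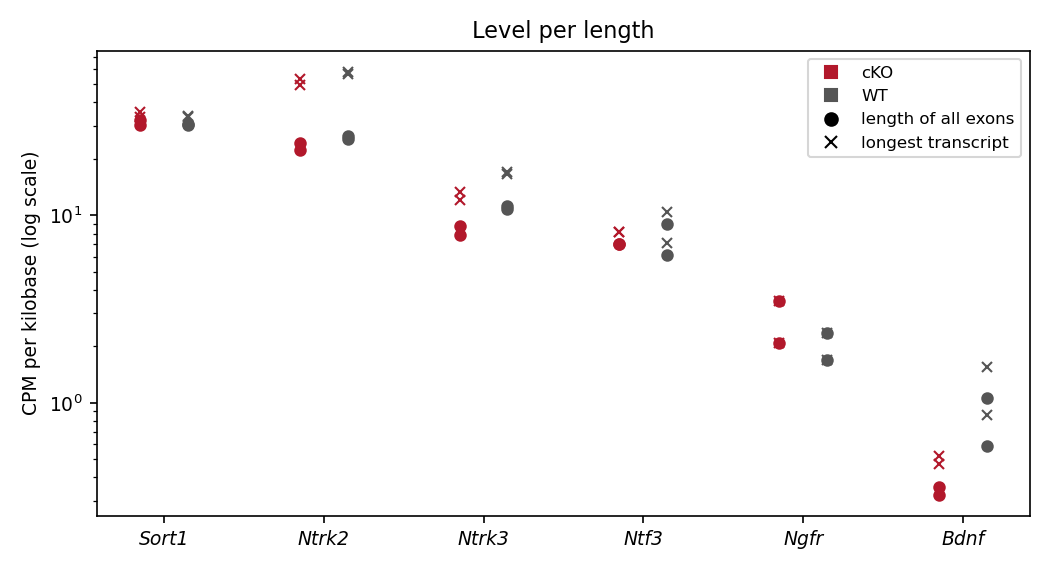
CPM per kilobase (vertical log axis) of the 6 genes, with 1 symbol per library, cKO in red to the left and WT in grey to the right. Circles use the length of all exons and crosses that of the longest transcript, and Ntrk2 moves above Sort1 by the longest transcript, while Bdnf is lowest by both.

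Ntf5, which encodes neurotrophin-4, had 0 counts in all 4 libraries, which allows up to 3 counts, or 0.302 to 0.336 CPM, per library. It was not tested.

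Sortilin belongs to the Vps10 family of sorting receptors, and 2 of its 4 relatives fell in cKO (2.17% of all tested genes) while Sort1 did not pass the test. Sorl1, whose product SorLA sorts TrkB and other cargo in neurons, was at 686 and 586.5 CPM in cKO 1 and cKO 2, against 869.5 and 829 CPM in WT 1 and WT 2. The groups were well separated (log2 fold change −0.42 with SE 0.077, edgeR adjusted p = 0.00268). Sorcs2, a partner of p75 in precursor signalling, was at 13.3 and 16.6 CPM in cKO, against 23.6 and 20.9 CPM in WT (log2 fold change −0.58 with SE 0.16, edgeR adjusted p = 0.0420). The call for Sorcs2 was lost in DESeq2 (adjusted p = 0.182), without WT 1 (edgeR adjusted p = 0.284) and in 3 alternatives that changed only the filter or the scaling. Sorcs1 was at 11.8 ± 1.71 CPM in cKO and 16.1 ± 1.06 CPM in WT (log2 fold change −0.45, adjusted p = 0.186), and Sorcs3 at 21.8 ± 3.55 and 23.1 ± 0.552 CPM (SD, n = 2 each). The median over the 4 tested genes of this list was −0.43, beside 0.0036 over all genes.

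**Figure D3:**
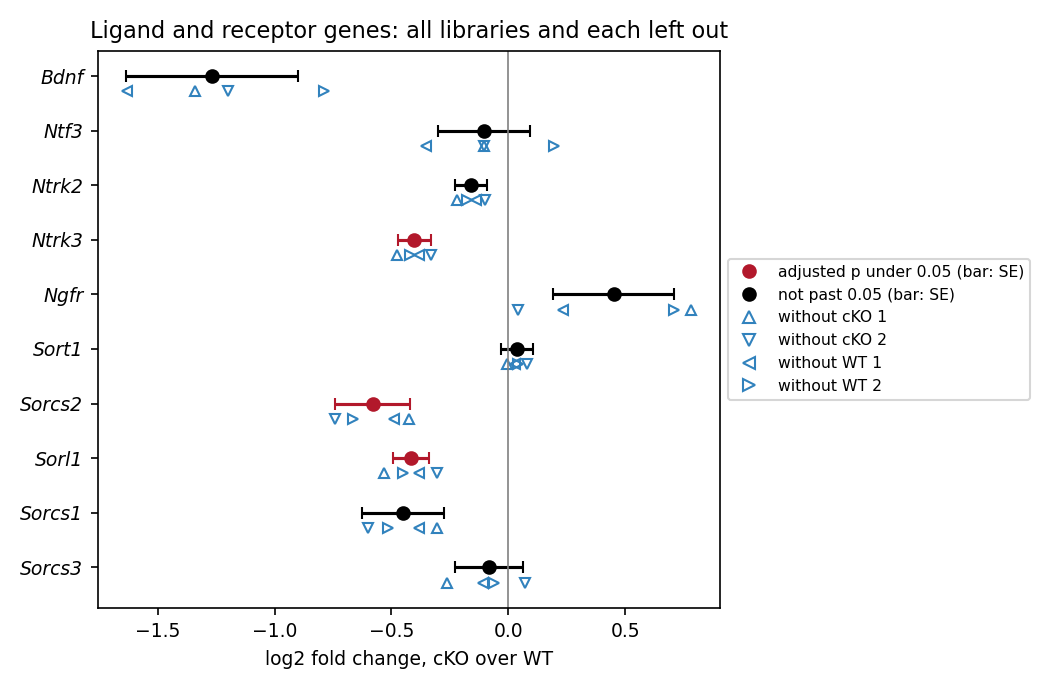
Log2 fold change of cKO over WT (horizontal axis) for the 6 genes and the 4 tested Vps10 relatives, with SE as bars, red where the edgeR adjusted p is under 0.05, and open triangles for fits with 1 library left out. Ntrk3, Sorl1 and Sorcs2 are red and stay below 0 in all 4 of those fits, while Bdnf ranges from −1.63 to −0.79.

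Of 16 tested genes of neurotrophin processing and release, 2 fell, 1 rose and 13 did not pass, with a median of −0.11, where 2.17% of all tested genes fell and 1.87% rose. Both that fell encode proprotein convertases of the regulated secretory pathway. Pcsk1 was at 3.93 and 4.15 CPM in cKO 1 and cKO 2, against 9.60 and 8.42 CPM in WT 1 and WT 2 (log2 fold change −1.16 with SE 0.25, edgeR adjusted p = 0.0104). Pcsk2 was at 56.7 and 57.9 CPM in cKO, against 71.8 and 81.1 CPM in WT (log2 fold change −0.42, SE 0.092, adjusted p = 0.0105). Cadps2, a dense-core vesicle release factor known to promote BDNF secretion in the mouse cerebellum, rose to 630 and 597 CPM in cKO, against 486 and 520 CPM in WT (log2 fold change 0.29, SE 0.071, adjusted p = 0.0234). In all 3 the groups did not overlap. The calls for Pcsk1 and Cadps2 were lost in edgeR without WT 1 (adjusted p = 0.109 and 0.256) and that for Pcsk2 without WT 2 (adjusted p = 0.170), and those for all 3 with no filter on low counts (0.0520 to 0.0926).

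Among 18 tested partners and adaptors of p75, 0 passed in edgeR in either direction, and the median was 0.013. The smallest p belonged to Omg, a myelin protein gene that binds the Nogo receptor complex, at 49.3 ± 4.21 CPM in cKO and 58.3 ± 2.78 CPM in WT (SD, n = 2 each, adjusted p = 0.215). Among 50 Trk adaptors and kinases, 2 rose, 2 fell and 46 did not pass, with a median of 0.024, where 1.87% of all tested genes rose and 2.17% fell. Mapk7, the gene of the kinase ERK5, rose to 88.1 and 108 CPM in cKO 1 and cKO 2, against 73.7 and 74.3 CPM in WT (log2 fold change 0.41, edgeR adjusted p = 0.0141). Ptprs, a receptor phosphatase gene, averaged 529 ± 12.8 CPM in cKO and 444 ± 10.2 CPM in WT (log2 fold change 0.25, adjusted p = 0.0408). Map2k1, which encodes MEK1, averaged 101 ± 5.16 CPM in cKO and 124 ± 0.552 CPM in WT (log2 fold change −0.30, adjusted p = 0.0361). Tiam1, a Rac exchange factor gene, averaged 226 ± 32.6 CPM in cKO and 282 ± 24.9 CPM in WT (log2 fold change −0.32, adjusted p = 0.0373). The value for Tiam1 was −0.18 without cKO 2 and −0.48 without cKO 1, and that for Mapk7 was 0.25 without cKO 2. The calls for Ptprs and Map2k1 were lost without either WT library (adjusted p = 0.324 and 0.129 for Ptprs, 0.176 and 0.166 for Map2k1) and that for Tiam1 without WT 2 (0.360). With all libraries kept, DESeq2 gave adjusted p = 0.118 for Map2k1, 0.0809 for Tiam1 and 0.0507 for Mapk7, and edgeR with no filter on low counts called none of these 4 genes (adjusted p = 0.121 to 0.214).

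Of 13 tested genes that Trk signalling is known to induce, 3 fell, 1 rose and 9 did not pass, with a median of −0.11 (2.17% and 1.87% of all tested genes fell and rose). Fos was at 4.13 and 7.28 CPM in cKO 1 and cKO 2, against 37.0 and 8.96 CPM in WT 1 and WT 2, so that WT 1 alone was high (log2 fold change −2.02, edgeR adjusted p = 0.00570, and −0.66 with adjusted p = 0.447 without WT 1). Nr4a1 likewise was at 16.6 and 13.8 CPM in cKO, against 37.9 and 20.8 CPM in WT (log2 fold change −0.94, adjusted p = 0.00870, and −0.45 with adjusted p = 0.360 without WT 1). In the alternatives that kept all libraries the adjusted p was 5.79e-08 to 0.422 for Fos and 5.30e-06 to 0.371 for Nr4a1. Within WT these genes were highest in WT 1, whereas Bdnf was highest in WT 2. Egr1 averaged 20.8 ± 1.3 CPM in cKO and 29.5 ± 1.58 CPM in WT (log2 fold change −0.51, adjusted p = 0.0345), a call lost without WT 1 (adjusted p = 0.248) and without WT 2 (0.0624), and with all libraries kept in DESeq2 (0.160) and with no filter (0.135). Dusp4, a phosphatase gene of the MAP kinase pathway, rose to 28.1 and 33.6 CPM in cKO, against 18.2 and 18.1 CPM in WT (log2 fold change 0.76, SE 0.14, adjusted p = 0.00250). The log2 fold change of Dusp4 was 0.76 without WT 1 and 0.89 without cKO 1.

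**Figure D4:**
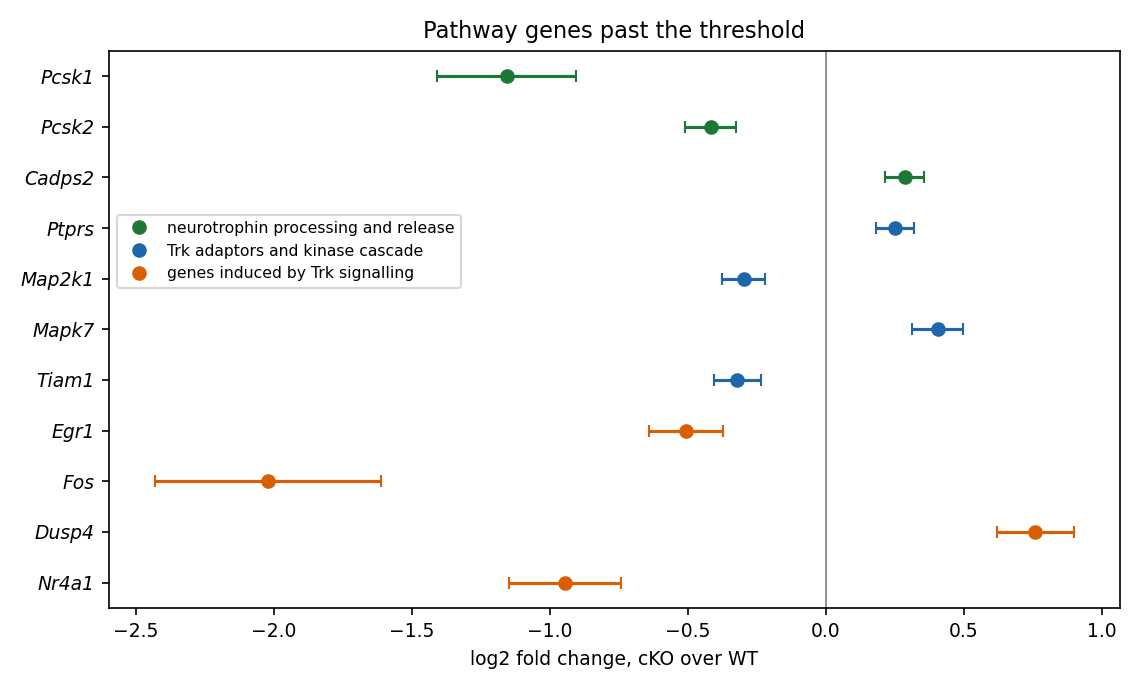
Log2 fold change of cKO over WT (horizontal axis, bars SE) for the 11 genes past the threshold in the lists of processing and release, Trk adaptors and kinases, and genes induced by Trk signalling. Cadps2, Ptprs, Mapk7 and Dusp4 lie above 0 and the other 7 below, with Fos farthest at −2.02.

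The GDNF family, a separate group of neurotrophic factors that signal through Ret, had 4 tested members of 10 and 0 passed in edgeR. Gfra2, a co-receptor gene, had the smallest p, at 27.5 ± 1.22 CPM in cKO and 21.4 ± 2.20 CPM in WT (SD, n = 2 each, log2 fold change 0.36, adjusted p = 0.170).

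The genes whose levels over the 4 libraries were most like those of Ntrk3 were sought among 11056 genes with a mean of at least 10 CPM. By Euclidean distance between log2 CPM values centred on their means, the nearest were Mitf (0.0178), Abhd3 (0.0311) and Cdh15 (0.0341), and 89 genes lay within 0.1. Mitf was at 9.78 and 8.96 CPM in cKO 1 and cKO 2 and at 12.6 and 12.3 CPM in WT 1 and WT 2, with no overlap between groups but no call (log2 fold change −0.41, edgeR adjusted p = 0.289). Cdh15, which encodes M-cadherin, averaged 39.45 CPM in cKO and 52.1 CPM in WT. With 4 libraries such a likeness is a description only.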

How the data were processed

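RNA-seq of whole P14 cerebellum was analysed in 4 libraries, 2 Kdm6b-cKO and 2 WT, each from an individual mouse. The deposited values were raw counts per gene. The authors trimmed paired reads with Trimmomatic 0.38, aligned them with STAR 2.7.2b and counted exon reads with HTSeq on a Gencode GRCm38 annotation, which sums all transcripts of a gene. The strand setting is not given in the sources used here. Titles gave the groups and numbers, although the description field numbers both replicates of a group as 1.

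Counts were filtered with filterByExpr, scaled with TMM and tested with the quasi-likelihood test of edgeR 4.0.16 (R 4.3.3), with p-values adjusted by Benjamini-Hochberg over all 16617 genes and a threshold of 0.05. The study's own tool, DESeq2 (1.42.0), and limma-voom (limma 3.58.1) were alternatives, beside other scalings and filters, a replicate block, omission of X and Y genes and omission of each library. The script was tested on simulated data. Intervals on single libraries are exact Poisson 95% intervals and cover counting error only.

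The 6 genes and all gene lists were chosen with earlier results of these data known. Named were these 6 genes, Kdm6b, every gene past the threshold in each pathway list (or that with the smallest p where none passed), other ligands and receptors, and the 3 genes with mean CPM of at least 10 nearest to Ntrk3 in pattern. Promoter sequences are from RefSeq (GRCm38.p6), and only the 250 bases before each start were used. Gene positions are from GENCODE M21 (GRCm38), in which all 55341 symbols were found. Some genes of the lists are not reported here.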

Additional observations from a re-analysis of the deposited data

How the results depend on the processing

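Ntrk2 and Ngfr kept their direction in all 13 alternatives and passed the threshold in none, although DESeq2 gave Ngfr no adjusted p. Ntrk3 passed in 11 of the 13. Leaving out 1 library at a time gave log2 fold changes of −1.63 to −0.79 for Bdnf, −0.35 to 0.19 for Ntf3, −0.48 to −0.33 for Ntrk3, −0.0056 to 0.078 for Sort1 and −0.26 to 0.070 for Sorcs3, so that Ntf3 turned positive without WT 2, Sort1 negative without cKO 1 and Sorcs3 positive without cKO 2. Over all genes, 671 passed in edgeR, against 0 to 512 with 1 library left out, 177 with no filter on low counts (28952 tested), 320 in DESeq2 and 1130 with the replicate block. Of the calls 53.8% were lower with TMM and 40.2% with library size alone. With the replicate block 2 of the 6 genes passed, Ntrk3 and Bdnf (−1.23, edgeR adjusted p = 0.0197), and 0 to 2 passed with 1 library left out. The numbers are only shared between groups, since no label pairs the mice and deviations of same-numbered libraries correlated at 0.0429 across genes. DESeq2 also gave no adjusted p for Bdnf and Pcsk1. By the longest transcript the mean over 4 libraries was 54.4 CPM per kilobase for Ntrk2, 14.8 for Ntrk3 and 34.1 for Sort1, against 24.7, 9.66 and 30.8 by all exons. Of 78 list medians 59 moved by less than the SD between the medians of that list in cKO 1 and cKO 2, each taken over the WT mean. That SD does not cover the spread between WT libraries. The cause of these changes was not tested. With 2 mice per group, and 1 library of the male pattern in WT, sex and genotype run partly together, and for Bdnf, at 18 to 61 counts, counting error and spread between mice were not separated.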
